A study of Mus musculus with 8 samples.

Results

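The genes described here are 10 protein-coding genes of the proximal imprinted region of mouse chromosome 6, out of 55487 genes in the count table. They fall into 2 clusters, Mest with its neighbour Copg2, and Tfpi2, Casd1, Sgce, Peg10, Ppp1r9a, Pon3, Pon2 and Asb4. The members were taken by name, by matching the Ensembl identifiers of the table to gene symbols. The region was selected on the measured difference between the lines in these same libraries, that of Mest above all, so the comparison of the lines is given for all members as a description. No p-value is attached to a member.

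RNA was measured in 8 libraries of mouse E14-Tg2a embryonic stem cells on day 6 of a serum-free differentiation towards precardiac mesoderm. There were 4 biological replicates of the parental line, labelled WT, and 4 of line 4D, labelled Tbx1-/-. Tbx1 is a T-box transcription factor gene tied in humans to DiGeorge syndrome. All mutant libraries came from 1 line, so what the genotype does and what is peculiar to line 4D cannot be told apart. The assay was QuantSeq, which reads the 3′ end of polyadenylated transcripts, and total counts ran from 3803561 to 6293907 per library. Tbx1 itself had 39, 65, 38 and 22 counts in the parental libraries, in the order 1 to 4, and 3, 0, 1 and 0 in the mutant ones. Mutant library 4 stood apart from the rest: across genes its log2 levels correlated with those of the other 7 libraries at 0.857 to 0.881, while the other pairs lay between 0.920 and 0.944. It was also the library with the smallest total, 3803561 counts, and the part of depth in its lower correlations was not tested. Of 17 tested genes on a list for precardiac mesoderm, Gata6 was higher and Fgf10 lower in the mutant line, and the call of Fgf10 was lost without parental library 1 or 3 or mutant library 1, 2 or 3 (edgeR adjusted p of up to 0.146). At an unadjusted p under 0.05 the list had 10 genes. DESeq2 called 5, adding Hand1, Hand2 and Isl1, limma-voom called 6, adding Hoxb1 to those, and without mutant library 4 edgeR called 3, with Isl1. Levels on this list were uneven: Hand1, Hand2, Pdgfra and Kdr had at least 356 counts in every library, while Mesp1 had at most 22 and Tcf21 at most 27, and Nkx2-5 and Tbx5 were at 0 in mutant library 4. Pou5f1, which marks undifferentiated stem cells, had at most 14.

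Imprinted genes are expressed mainly from the copy inherited from 1 parent, a state set by DNA methylation laid down in the germ line. Mest is expressed from the paternal copy and is known from mesoderm and its derivatives, and it belongs to the alpha/beta hydrolase fold family of enzymes. In the other cluster Peg10 and Sgce are the paternally expressed pair, while Asb4, and in some tissues Ppp1r9a, Tfpi2, Pon2 and Pon3, are known for expression from the maternal copy. Counts here sum both parental copies, so no allele can be assigned.

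These sequences lie before an annotated start of the 2 members that rose, Mest and Asb4, and of Copg2, which lies opposite Mest. Each is the stretch of 250 bases just before an annotated start on build GRCm38.p6, credited to RefSeq, written 5′ to 3′ on the gene's strand, with CpG dinucleotides, the sites of DNA methylation, in capitals.
Mest (chr6:30737800-30738049, plus strand): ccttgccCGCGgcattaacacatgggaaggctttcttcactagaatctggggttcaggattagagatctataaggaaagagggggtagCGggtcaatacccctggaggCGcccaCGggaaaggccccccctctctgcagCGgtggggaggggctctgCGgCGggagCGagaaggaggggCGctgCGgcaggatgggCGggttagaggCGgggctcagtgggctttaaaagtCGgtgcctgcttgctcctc
Copg2 (chr6:30896795-30897044, minus strand): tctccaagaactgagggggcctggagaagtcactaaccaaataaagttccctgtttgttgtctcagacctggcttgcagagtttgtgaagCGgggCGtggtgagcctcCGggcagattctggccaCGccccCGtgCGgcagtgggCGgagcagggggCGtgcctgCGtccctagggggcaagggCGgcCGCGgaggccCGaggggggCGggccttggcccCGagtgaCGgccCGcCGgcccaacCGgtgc
Asb4 (chr6:5383136-5383385, plus strand): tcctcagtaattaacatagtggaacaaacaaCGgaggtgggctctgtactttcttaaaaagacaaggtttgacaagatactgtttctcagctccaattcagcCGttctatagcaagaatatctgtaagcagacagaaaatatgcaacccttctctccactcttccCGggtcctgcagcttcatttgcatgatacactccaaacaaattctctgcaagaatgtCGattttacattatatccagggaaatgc
There are 14 CpGs in the Mest stretch, 19 in that of Copg2 and 4 in that of Asb4.

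RefSeq windows of 300 bases, with 50 after the start, were found for 8 of the 10 members at 15 start sites. Peg10 and Sgce had no entry. Over all 32851 windows of that length the median was 7 CpGs, with quartiles of 3 and 20. Mest had 17 CpGs at its start at 30738050 and 8 at an annotated start further upstream at 30733506. The 2 Asb4 windows had 6 and 8 CpGs. The Mest and Asb4 counts all lay under the upper quartile of 20. Which start was in use was not measured. The highest count among members was 48 in a Ppp1r9a window. The T-box motif AGGTGTGA, read on both strands, is held by 1.28% of all windows, and its inner part GGTGTGA, contained in it, by 3.98%. Neither was found in any of the 15 member windows. DNA methylation was not measured here.

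Mest also hosts a microRNA gene, Mir335, inside its span on the same strand. Its mature sequences from RefSeq, with the seed at bases 2 to 8 in capitals, are shown because the host transcript is the one that moved most.
mmu-miR-335-5p (chr6:30741314-30741336): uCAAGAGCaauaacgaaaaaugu
mmu-miR-335-3p (chr6:30741354-30741375): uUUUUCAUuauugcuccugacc
The row for Mir335 held 9, 2, 13 and 4 counts in parental libraries 1 to 4 and 7, 2, 0 and 25 in mutant libraries 1 to 4. These are 3′ ends of polyadenylated RNA and do not measure the mature microRNA, and the groups overlapped.

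Levels are given as CPM, counts per 1000000 counts of a library after scaling by the trimmed mean of M values (TMM). The lines were compared over 13280 genes with edgeR's quasi-likelihood test, and a gene is said to have risen or fallen when its Benjamini-Hochberg adjusted p was under 0.05. Of the 10 members 9 had enough counts to be tested. Of these, 2 rose in the mutant line, Mest and Asb4, 0 fell, and 7 did not pass. Over all tested genes 1.42% passed in either direction, 0.745% as higher and 0.67% as lower. Since this contrast was known when the members were chosen, nothing is read from the difference between these shares. The median log2 fold change was 0.18 over the 9 members and 0.00 over all tested genes. Of the members, 6 had a positive and 3 a negative value.

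Mest (ENSMUSG00000051855, chromosome 6, 30723547 to 30748465, plus strand) stood at 12.7, 7.53, 11.5 and 13.3 CPM in parental libraries 1 to 4. Its level in the mutant libraries, in the same order, was 131, 121, 85.9 and 78.9 CPM. The lowest mutant library was 5.94 times the highest parental one, so the groups were far apart. In counts this was 42 to 72 per parental library and 287 to 781 per mutant library. The mean rose from 11.3 ± 2.59 to 104 ± 25.8 CPM (SD, n = 4 libraries per line). The log2 fold change was 3.21 ± 0.22 (SE), a 9.28-fold difference with an unadjusted 95% interval of 6.74 to 12.8. It was the third largest positive log2 fold change of all tested genes. Without mutant library 4 it was 3.32. In bulk RNA more cells of a type and more RNA per cell cannot be told apart.

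Markers of other cell types moved in the same libraries. On a list of 24 endothelial and blood genes, 5 of 22 tested genes rose and 0 fell, and the summed level was 792 to 1204 CPM in the parental and 1495 to 2388 CPM in mutant libraries. The 5 were the globin genes Hba-x, Hbb-bh1, Hbb-y and Hba-a1, and Fli1, a transcription factor of endothelium and blood. Globin RNA weighed on that sum: Hba-x had means of 31.2 ± 3.19 and 242 ± 80.7 CPM, and Hbb-bh1 106 ± 22.9 and 427 ± 54.6 CPM (SD, n = 4). Pecam1, Cdh5 and Kdr on that list did not pass, with log2 fold changes of -0.27, 0.35 and 0.34. Nor did Gata1, Klf1 and Tal1, at 0.74, 0.75 and 0.76, though Tal1 was called without mutant library 4. On a list of 16 fibroblast and mesenchyme genes, 4 of 14 tested genes rose, Col3a1, Twist1, Col1a2 and Postn, and the summed level was 2455 to 4361 CPM in the parental and 4053 to 5522 CPM in mutant libraries. No gene of the endothelial and blood list was at 0 in all libraries, nor was any of the mesenchyme list, although Lum was at 0 in the 4 parental libraries. Other mesenchyme genes had lower values in the mutant line without passing: Meox1 was at -0.90, Tagln at -0.72 and Acta2 at -0.45 on the log2 scale. Thy1, too low to be tested, had 7 to 29 counts in the parental and 0 to 5 in the mutant libraries. The part of these cell types in the rise of Mest was not tested.

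Copg2 (ENSMUSG00000025607, chromosome 6, 30747554 to 30896794, minus strand) encodes a gamma subunit of the COPI coat, which carries cargo between Golgi and endoplasmic reticulum. It converges on Mest from the opposite strand, and the 2 gene bodies share 912 bases at their 3′ ends, where this assay reads. It had 27.8, 23.9, 20.4 and 25.1 CPM in parental libraries 1 to 4 and 18.6, 16.3, 20.7 and 29.1 CPM in mutant libraries 1 to 4. The libraries overlapped, and the highest value of all was in mutant library 4. The log2 fold change was -0.20 ± 0.24 (SE), with an unadjusted 95% interval for the fold of 0.614 to 1.23. Mest rose and its antisense neighbour, which shares those bases, did not pass. An annotated antisense RNA within Mest, Gm44296, had 0 counts in all parental libraries and 4, 2, 0 and 0 in mutant libraries 1 to 4, at or near the floor of 3 counts.

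No other gene of the COPI coat passed either. On a list of 11 coatomer and Arf1 symbols, 10 were in the table and tested, Copg2 among them, and 0 passed (2 at an unadjusted p under 0.05, and 0 with DESeq2 or limma-voom). Since both genes sit in the same library, the ratio of their counts is free of any scaling. Mest had 0.458, 0.316, 0.563 and 0.529 counts per Copg2 count in parental libraries 1 to 4 and 7.04, 7.41, 4.15 and 2.71 in mutant libraries 1 to 4. Mest was thus the weaker of the pair in all 4 parental libraries and the stronger in all 4 mutant libraries.

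Asb4 (ENSMUSG00000042607, chromosome 6, 5383386 to 5433022, plus strand) encodes an ankyrin repeat and SOCS box protein, part of a ubiquitin ligase and known from vascular progenitors. Its start lies 636 kb from that of Peg10. It had 104.6, 69.8, 71.3 and 59.2 CPM in parental libraries 1 to 4 and 227, 156, 107.9 and 159 CPM in mutant libraries 1 to 4. The groups did not overlap, but mutant library 3 was only 1.03 times parental library 1. The mean rose from 76.2 ± 19.6 to 163 ± 49.1 CPM (SD, n = 4 libraries per line). The log2 fold change was 1.09 ± 0.20 (SE), a 2.13-fold difference with an unadjusted 95% interval of 1.6 to 2.85. Without mutant library 1, the highest, it was 0.88, and without mutant library 4 it was 1.10. Over all tested genes 7.52% had libraries that did not overlap between the lines, 3.49% with the mutant line higher and 4.04% with it lower. Among the 9 members it was 2, both higher, and this too was known when they were chosen.

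Pon2 and Pon3 are lactonase enzymes of the paraoxonase family, and they are the members closest to Asb4. Pon2 (ENSMUSG00000032667, 5264147 to 5298455, minus strand) had 26.7, 17.6, 23.9 and 17.5 CPM in the parental and 27.0, 25.3, 17.8 and 18.4 CPM in mutant libraries 1 to 4. Pon3 (ENSMUSG00000029759, 5220852 to 5256286, minus strand) had 15.1, 14.3, 7.02 and 12.2 CPM in the parental and 15.6, 11.1, 12.4 and 5.22 CPM in mutant libraries 1 to 4. Both overlapped completely, with log2 fold changes of 0.05 ± 0.25 and -0.12 ± 0.37 (SE). The sign of each turned in at least 1 fit that left out a library. Pon1, the third paraoxonase, had at most 11 counts in any library and was not tested, so of the 2 tested members of that family 0 passed (0 at an unadjusted p under 0.05, 0 with DESeq2 and 0 with limma-voom). Asb4 had 3.91, 3.97, 2.98 and 3.39 counts per Pon2 count in parental libraries 1 to 4 and 8.4, 6.17, 6.06 and 8.64 in mutant libraries 1 to 4. Set against Peg10 counts instead, Asb4 did not separate the lines. Mutant library 3 had 0.110 Asb4 counts per Peg10 count, below the 0.140 of parental library 1. Mutant libraries 1, 2 and 4 lay higher than every parental value, at 0.242, 0.214 and 0.156. Start to start, Asb4 and Pon2 lie 84.9 kb apart on opposite strands.

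Peg10 (ENSMUSG00000092035, 4747306 to 4760517, plus strand) derives from the gag and pol genes of a retrotransposon and is known for its need in placenta formation. It was the most abundant member by far. Its level was 748, 657, 691 and 883 CPM in parental libraries 1 to 4 and 939, 728, 984 and 1021 CPM in mutant libraries 1 to 4. Of the 4 mutant libraries 3 lay above all parental ones, while mutant library 2 lay inside the parental range. Means were 745 ± 99.6 and 918 ± 131 CPM (SD, n = 4 libraries per line), and the log2 fold change of 0.30 ± 0.11 (SE) did not pass. Its unadjusted 95% interval for the fold was 1.04 to 1.46, which does not take account of the number of genes tested. Without mutant library 4 the log2 fold change was 0.25. On a list of 17 genes derived from retrotransposon gag or related to it, 6 could be tested, Peg10 among them, and 0 passed (1 at an unadjusted p under 0.05, 0 with DESeq2 and 0 with limma-voom).

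Sgce (ENSMUSG00000004631, 4674350 to 4747207, minus strand) encodes epsilon-sarcoglycan, a membrane protein of the dystrophin-associated complex. Its start lies 99 bases from that of Peg10 on the other strand, so that the pair is read outwards from a common region. It had 85.3, 80.01, 71.6 and 78.0 CPM in parental libraries 1 to 4 and 67.4, 72.1, 74.5 and 71.5 CPM in mutant libraries 1 to 4. The libraries overlapped, 2 mutant values lay below all parental ones, and the log2 fold change of -0.14 ± 0.13 (SE) did not pass. It had the smallest spread of the tested members, with an SD of 7.16% of the mean in parental and 4.15% in mutant libraries. Peg10 had 8.77, 8.21, 9.64 and 11.3 counts per Sgce count in parental libraries 1 to 4 and 13.9, 10.1, 13.2 and 14.3 in mutant libraries 1 to 4. The mean ratio was 9.49 ± 1.36 in parental and 12.9 ± 1.91 in mutant libraries (SD, n = 4 per line), and the ranges overlapped. On a list of 15 genes of the dystrophin complex, 11 were tested, Sgce among them, and 0 passed (0 at an unadjusted p under 0.05, 0 with DESeq2 and 0 with limma-voom).

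Ppp1r9a (ENSMUSG00000032827, 4902917 to 5165661, plus strand) encodes neurabin, an actin-binding protein that anchors protein phosphatase 1. It had 98.01, 92.8, 99.4 and 76.3 CPM in the parental and 115, 94.6, 79.2 and 139 CPM in mutant libraries 1 to 4. Mutant libraries 1 and 4 lay above the parental range and the others within it. The log2 fold change was 0.22 ± 0.16 (SE), which did not pass. Casd1 (ENSMUSG00000015189, 4600839 to 4643355, plus strand), which O-acetylates sialic acids, had 46.7, 59.02, 59.8 and 73.3 CPM in the parental and 79.3, 59.7, 73.9 and 56.4 CPM in mutant libraries 1 to 4. Its values overlapped and its log2 fold change was 0.18 ± 0.17 (SE). On the same strand Gm44432 overlaps Casd1 and had up to 110 counts, and Gm26814 overlaps Ppp1r9a and had up to 58. How reads in shared sequence were assigned is not given, so the counts of both members are uncertain to an unknown extent.

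Tfpi2 (ENSMUSG00000029664, 3962595 to 3988919, minus strand), a Kunitz-type serine protease inhibitor gene of the placenta, had 0 counts in all 8 libraries. A floor of 3 counts corresponds to 0.479 to 0.825 CPM in these libraries, so a level below that was not detectable. Of the 17 genes on a list for trophoblast, the outer lineage that builds the placenta, Gcm1, Synb, Tpbpa, Prl3d1 and Prl2c2 were also at 0 in all libraries. Among its low genes, Krt7 had 3 to 18 counts in the parental and 0 in the mutant libraries, and Rhox9 had 0 to 6 and 1 to 36. Of its 5 tested genes, which include Hand1 from the precardiac list, Cdx2 fell from 133 ± 35.6 to 73.7 ± 17.6 CPM (SD, n = 4), which is -0.85 ± 0.19 on the log2 scale (edgeR, adjusted p = 0.0236). That call was lost, with adjusted p of 0.0813 to 0.0979, without parental library 2 or 4 or mutant library 1 or 3. Plac1 on the same list had 15.3 ± 5.79 and 32.7 ± 12.02 CPM and did not pass with edgeR. DESeq2 called 3 genes of the list, Cdx2, Hand1 and Plac1, and limma-voom 2, Cdx2 and Hand1. The summed level of the list was 708 to 839 CPM in the parental and 493 to 674 CPM in mutant libraries. Hand1 and Cdx2 made up most of that sum, Hand1 with means of 615 ± 32.1 and 469 ± 84.7 CPM. Which cells expressed Cdx2 or Hand1 was not measured, so their values are not read as an amount of trophoblast.

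**Figure D1:**
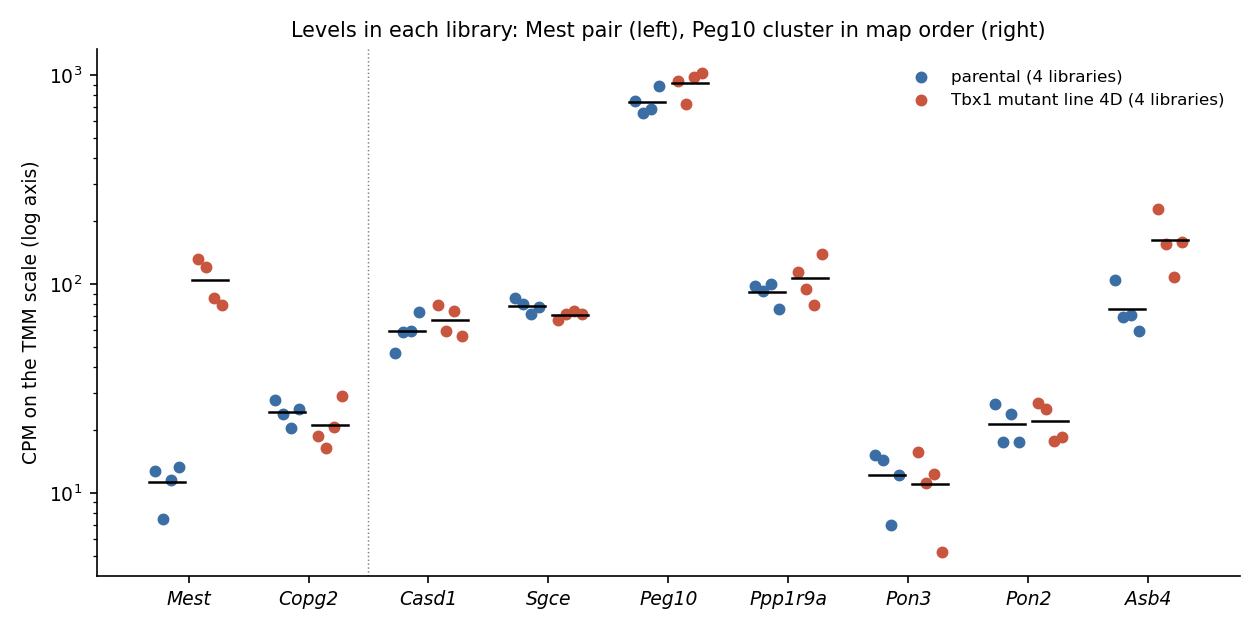
Level of the 9 detected members in each library (CPM on the TMM scale, log axis), with 1 point per library, blue for the 4 parental and red for the 4 mutant libraries, and a bar at the mean. Mest and Asb4 separate, Mest from 7.53 to 13.3 against 78.9 to 131 CPM, and the other members overlap.

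A QuantSeq count does not grow with transcript length, so levels were ordered without dividing by it. In the parental line Peg10 led at 745 CPM, followed by Ppp1r9a at 91.6, Sgce at 78.7, Asb4 at 76.2 and Casd1 at 59.7 CPM, and each neighbour among the last 4 overlapped the next. Copg2 at 24.3 and Pon2 at 21.4 CPM overlapped each other, as did Pon3 at 12.2 and Mest at 11.3 CPM. Mest stood at place 9 of the 9 detected members in the parental line and at place 4 in the mutant line, where its range overlapped that of Ppp1r9a above it. Asb4 stood at places 4 and 2, and in the mutant line it too overlapped Ppp1r9a. Peg10 took 66.3 ± 3.39% of the members' summed counts in the parental line and 61.7 ± 5.23% in the mutant line (SD, n = 4). Mest took 0.998 ± 0.17% and 7.11 ± 2.02%, and Sgce 7.06 ± 0.66% and 4.85 ± 0.64%.

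Within 1 Mb of Mest 59 other genes are annotated, of which 24 had no count at all and 14 could be tested. Of the 14, 0 rose and 1 fell, where 1.42% of all tested genes passed, and their median log2 fold change was -0.24. The gene that fell was Podxl, which encodes podocalyxin, a sialomucin of blood and epithelial cells. It lies 771 kb beyond Mest and fell from 145 ± 36.1 to 74.0 ± 22 CPM (SD, n = 4), which is -0.97 ± 0.21 on the log2 scale (edgeR, adjusted p = 0.0200). The call was lost without parental library 1, 2 or 3, with adjusted p of 0.0802, 0.111 and 0.0525. The annotated genes next to the pair, Gm14528 and 4930412F09Rik, had at most 1 count. The nearest tested genes were Cep41 at -0.10 ± 0.27, which encodes a centrosomal protein, and the imprinted factor gene Klf14 at 0.22 ± 0.51 on the log2 scale, and neither passed.

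Around Peg10, 31 other genes lie within 1 Mb, and 6 could be tested. Of these 1 rose and 0 fell, where 1.42% of all tested genes passed, and their median log2 fold change was 0.69. Of those that did not pass, Gng11 was at 0.48 and Bet1 at -0.08. Gm26814, Gm44250 and Gm44432 were at 0.92 ± 0.55, 0.91 ± 0.51 and 0.25 ± 0.46 (SE), with parental means of 3.71, 4.75 and 8.66 CPM. Gm26814 and Gm44432 overlap Ppp1r9a and Casd1. The gene that rose was Col1a2, which encodes a chain of type I collagen and ends 205.8 kb before Peg10 starts. It rose from 598 ± 157 to 1143 ± 63.6 CPM (SD, n = 4), which is 0.93 ± 0.14 on the log2 scale (edgeR, adjusted p = 0.00108). The genes that rose, Col1a2 and Asb4, thus lay on either side of Casd1, Sgce, Peg10, Ppp1r9a, Pon3 and Pon2, which did not pass. The annotated genes next to the cluster, Gm44221 and Pdk4, had at most 8 counts. The nearest tested ones were Vps50 at 0.11 ± 0.23 and Slc25a13 at -0.52 ± 0.17, with edgeR adjusted p of 0.909 and 0.168.

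**Figure D2:**
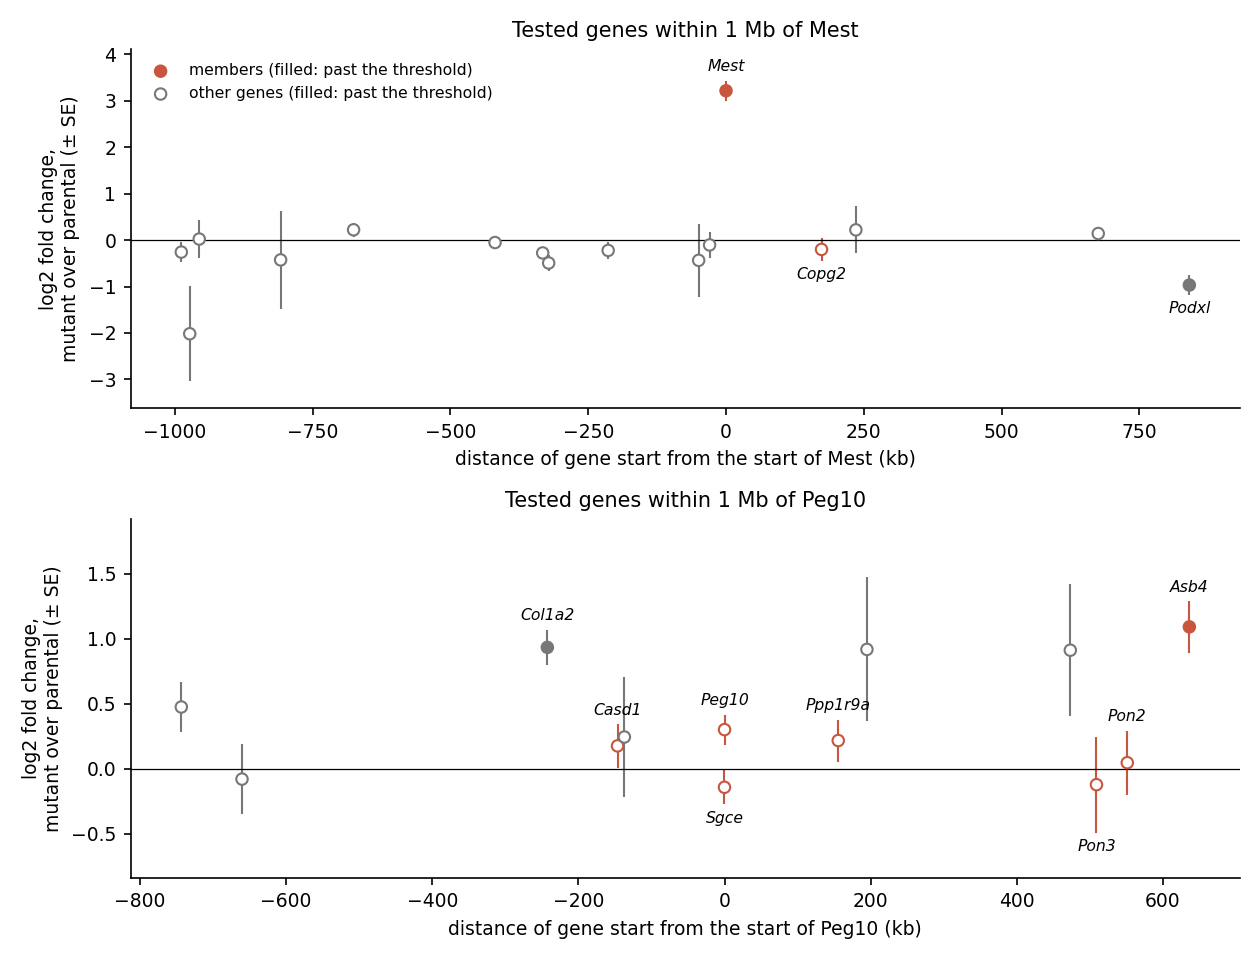
Log2 fold change, mutant over parental, with its SE, for every tested gene within 1 Mb of Mest (top) and of Peg10 (bottom), by the distance of gene starts in kb. Filled points passed the threshold: Mest at 3.21 and Podxl at -0.97 on top, Col1a2 at 0.93 and Asb4 at 1.09 below, with unfilled points between them.

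Of 684 tested genes on chromosome 6, 10 were higher and 6 lower, which is 2.34%, and Mest had the largest rise among them. The median of these genes, each set against its own mean in the parental line, was 0.01 ± 0.01 in parental and 0.00 ± 0.05 in mutant libraries on the log2 scale (SD, n = 4). The difference of -0.01 was smaller than the SD of the mutant libraries. A two-sided permutation test of these medians over 70 assignments gave p = 0.943. The parental mean was not set anew for each assignment, so this p is not exact and nothing is read from it.

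Imprinted genes elsewhere were compared through 2 lists, which include genes imprinted only in some tissues and both hold Zim1. The copy expressed here was not measured for any listed gene, Gnas, H13 and Blcap on the paternal list included. The list names are therefore labels and not results. Of 31 tested genes listed as paternally expressed, 1 rose and 0 fell, and the median log2 fold change was 0.03. At an unadjusted p under 0.05 there were 7. DESeq2 called 3, Impact, Dlk1 and Magel2, and limma-voom 2, Impact and Dlk1. With edgeR Dlk1 was at 0.51 ± 0.15 and Magel2 at -1.21 ± 0.34 on the log2 scale, and neither passed. The gene that did was Impact, a regulator of translation under amino acid shortage, which stood at 88.2 ± 5.94 CPM in the parental line and 182 ± 9.43 CPM in the mutant line, 1.04 ± 0.11 apart on the log2 scale (edgeR, adjusted p = 4.99e-05). Of 21 tested genes listed as maternally expressed, 1 rose and 1 fell, with a median of 0.11. H19, a growth-restraining noncoding RNA, went down from 189 ± 16.1 CPM to 70.5 ± 30.1 CPM, which is -1.42 ± 0.20 on the log2 scale (edgeR, adjusted p = 0.000792). Phlda2, a growth-restraining gene of the placenta, had 389 ± 28.4 and 534 ± 81.4 CPM, with an edgeR adjusted p of 0.0463. This p was 0.0559 to 0.189 when any library other than mutant library 2 was left out, and 0.0565 in a fit blocked on replicate number. Without mutant library 4 that list had 0 higher and 1 lower. Impact, H19 and Phlda2 all lie on other chromosomes than the members.

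On a list of 27 genes that read or keep imprints or act on DNA methylation and chromatin, no tested gene passed. The tested ones include the DNA methyltransferases Dnmt1, Dnmt3a and Dnmt3b, the reader Uhrf1, and the zinc finger proteins Zfp57 and Zfp445 with their cofactor Trim28. They also include the Tet enzymes, which oxidise methylated cytosine. Dnmt3l, Dppa3, Tdg and Ctcfl were too low to be tested. Of 23 tested, 0 rose and 0 fell (2 at an unadjusted p under 0.05, Dnmt3b and Setdb1, and 0 with DESeq2 or limma-voom). Their log2 fold changes ran from -0.45 to 0.23 with a median of -0.04. Dnmt1, the enzyme that copies methylation at replication, stood at 131 ± 18.4 CPM in the parental line and 150 ± 27.3 CPM in the mutant line.

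Genes with the profile most like that of a member were sought among 9026 genes with a mean of at least 10 CPM. Likeness was the root mean square difference between log2 CPM profiles over the 8 libraries, each centred on its own mean. It includes the difference between the lines, so a gene that rose much lies close to others that rose much. For Mest the closest were Hbb-bh0, Hba-x, Dnm3os, Hba-a1 and Gpc4, at distances of 0.35, 0.40, 0.41, 0.49 and 0.61, where the median gene lay at 1.64. Of these 3 are alpha or beta globin genes, Dnm3os is a noncoding RNA host of microRNAs and Gpc4 encodes a glypican. Hbb-bh0 is a pseudogene and Hba-a1 has a near-identical copy, so their counts are uncertain. Mutant library 1 was the highest for Mest, Hbb-bh0, Hba-x, Hba-a1 and Gpc4 alike. Hbb-bh0, Hba-x, Dnm3os, Hba-a1 and Gpc4 had log2 fold changes of 3.07, 2.96, 3.07, 2.40 and 2.20, so their closeness to Mest largely restates their rise.

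For Asb4 the closest were Nrk, Pcdh17, Cygb, Gm37474 and Tgfbr2, at 0.18, 0.21, 0.24, 0.24 and 0.24, with a median of 0.69 over all genes compared. Nrk, which encodes a kinase, rose from 96.8 ± 21.2 to 221 ± 69.7 CPM, which is 1.19 ± 0.19 on the log2 scale (edgeR, adjusted p = 0.00229). Cygb, which encodes cytoglobin, rose by 0.95 ± 0.22 on the log2 scale (edgeR, adjusted p = 0.0400), but that p was 0.0714 to 0.189 without parental library 2, 3 or 4 or mutant library 1 or 3. Pcdh17, Gm37474 and Tgfbr2 did not pass. Pcdh17, at 0.91 ± 0.27 on the log2 scale with an edgeR adjusted p of 0.120, did pass without the low-count filter (0.00305), with DESeq2 (0.0471) and with a replicate block (0.0283). For Peg10 the closest were Dgkh, Rxylt1, Smarca1, Epn2 and Polr1a, at 0.08, 0.08, 0.10, 0.10 and 0.11, with a median of 0.36, and none of these 5 passed with edgeR. Distances are smaller for a profile that varies little, so they are not compared between the 3 members.

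**Figure D3:**
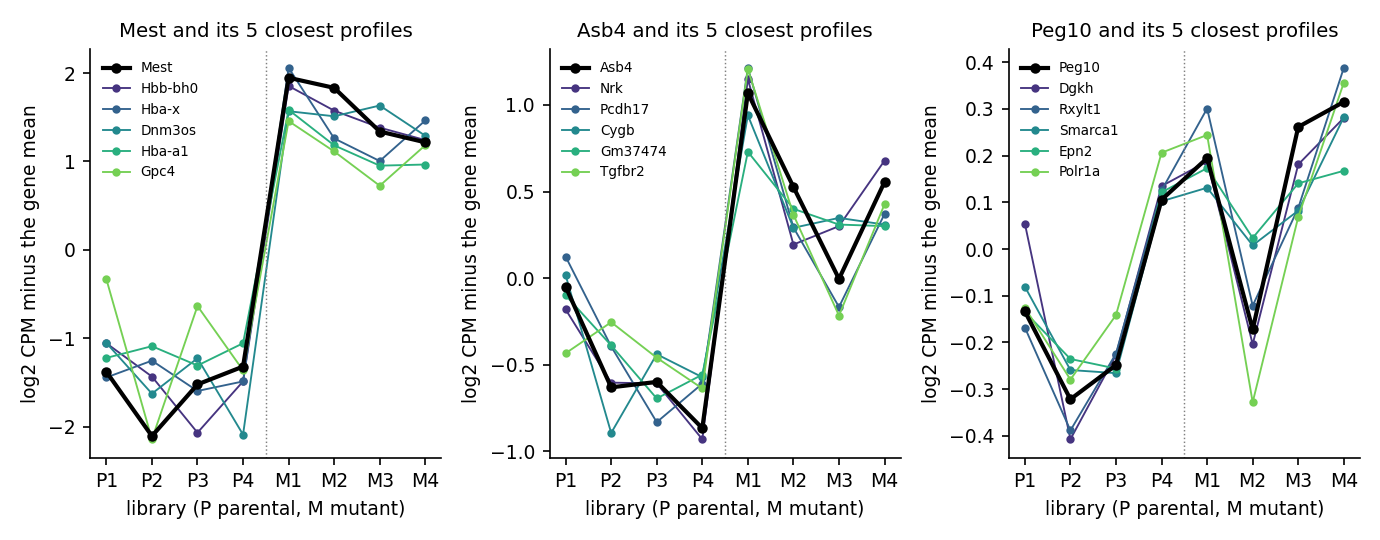
Log2 CPM minus the gene's mean (vertical axis) in parental libraries P1 to P4 and mutant libraries M1 to M4, for Mest, Asb4 and Peg10 (black) and the 5 genes closest to each. Lines only join the points of 1 gene. The Mest panel separates the lines by far more than the Peg10 panel, where M2 lies among the parental values.

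Other cell types were read from the remaining marker lists. Cardiomyocyte genes had 0 of 12 passing (8 at an unadjusted p under 0.05, 0 with DESeq2 and 0 with limma-voom), with summed levels of 679 to 3952 CPM in the parental and 133 to 1070 CPM in mutant libraries. Their log2 fold changes were all negative, from -1.65 to -0.64 with a median of -1.27. Lin28a, an RNA-binding protein of early development, was the called gene of 9 tested on the pluripotency list, at -0.79 ± 0.14 on the log2 scale (edgeR, adjusted p = 0.00415). Endoderm had 2 of 11 lower, Krt18 at -0.76 ± 0.15 and Foxa2 at -1.93 ± 0.42, while DESeq2 called 3, with Trh, and limma-voom 1, Krt18. The call of Krt18 was lost without parental library 1 or 2 or mutant library 3, with edgeR adjusted p of up to 0.0692, and that of Foxa2 with limma-voom and without any 1 of the parental libraries or mutant library 2 or 3, with up to 0.111. Extraembryonic endoderm had 0 of 14 (2 at an unadjusted p under 0.05) and neural genes 0 of 7 (1 at an unadjusted p under 0.05), both also 0 with DESeq2 and limma-voom. The part of these cell types in the members' values was not tested.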

How the data were processed

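Counts per gene were deposited by the authors as 1 table of whole numbers for 8 libraries, without normalization or pooling. STAR, featureCounts and build mm10 are named in the submitters' processing notes, the file name states forward-strand counting, and versions, annotation and duplicate removal are not given in the sources used here. Identifiers were matched, version dropped, to GENCODE M21 on GRCm38 (mm10), which gave a symbol to 55227 of 55487. Genes were filtered with filterByExpr, scaled by TMM and tested with edgeR 4.0.16 in R 4.3.3 (glmQLFit, glmQLFTest, line as the only term) over 13280 genes with Benjamini-Hochberg adjustment. The SE is the absolute log2 fold change divided by the square root of F. The procedure was tested on simulated data. Log2 profiles used a prior count of 2. Alternatives used DESeq2 1.42.0 and limma 3.58.1. Members, gene lists and tests were chosen with earlier results of these data known.

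Named genes were all members, called genes within 1 Mb of Mest or Peg10, the next annotated genes, up to 3 called genes per list by smallest p, the 5 closest profiles and Tbx1. Any other gene named, such as Pecam1, Cdh5, Postn, Dnmt1, Plac1 and Thy1, was chosen after its values were seen. No pair of libraries within a line agreed within sampling noise (chi-square per degree of freedom of 7.04 or more). The floor was 3 counts. PCR reads without molecular identifiers are not independent molecules, so floors cover counting error only.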

Additional observations from a re-analysis of the deposited data

How the results depend on the processing

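Under each of the 16 other fits (scaling, filter, DESeq2, limma-voom, replicate block, thinning to the smallest total, and 8 that left out 1 library), 2 members passed, Mest and Asb4. Mest ranged from 3.06 to 3.32 and Asb4 from 0.88 to 1.28 on the log2 scale, and Peg10 stayed below the threshold at 0.24 to 0.39. With the replicate number as a block, Mest was at 3.2, Asb4 at 1.07 and Peg10 at 0.30. Same-numbered libraries deviated together at a mean correlation of 0.03 (-0.03 to 0.10), so the number was not taken as a pairing, and the block gave 234 called genes against 188. Called genes over the table numbered 439 of 26750 tested without a low-count filter, and 399 with DESeq2. Without the filter the SE also changed, that of Asb4 to 0.14 from 0.20. The cause was not tested for either number. Leaving out single libraries gave 103 to 235 (103 without parental library 2, 104 without parental library 3 and 116 without mutant library 3). Library size alone gave 100 higher and 57 lower genes, 63.7% higher against 52.7% with TMM.

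Near 0, signs turned. Pon2 was at -0.04 without parental library 2, -0.04 without parental library 4, -0.069 without mutant library 1 and -0.03 without mutant library 2, and ranged from -0.069 to 0.17 when single libraries were left out. Pon3 was at 0.10 without mutant library 4, in a range of -0.34 to 0.10. Cep41 was at 0.048 without parental library 4 (-0.27 to 0.048 over the libraries left out), Klf14 at -0.021 with limma-voom and -0.15 without mutant library 4 (-0.15 to 0.48), and Vps50 at -0.0052 without parental library 1 (-0.0052 to 0.24). The difference in the chromosome 6 median was 0.013 with library size alone and 0.0202 without mutant library 4, and -0.0285 to 0.0202 when single libraries were left out. Other genes called within 1 Mb of Mest or Peg10 numbered 2, and 1 to 2 when single libraries were left out (1 without parental library 1, 2 or 3) and 3 without a low-count filter. Within 500000 bases there was 1 and within 2 Mb there were 3. Depth limits Tfpi2, Pon1 and Mir335, which were not tested.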
